A study of Homo sapiens with 2 samples.

Results

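Strong ETV4 peaks at gene ends were defined as peaks with a fold enrichment over the control of at least 50 but below 100 whose summit lay within 1 kb of an end of exactly 1 protein-coding RefSeq gene. Of the 54389 peaks in the list, 603 were such strong peaks, and each of them marked a different gene. The members were chosen by their fold enrichment, so the fold, the pileup, the width, and the p- and q-values below describe how they were selected and are given with no test. In all, 2788 peaks had a fold in this range, of which 2091 had no protein-coding end within 1 kb, 89 lay at the ends of 2 genes, and 5 at the ends of 3 or more. The strong peaks marked 3.01% of the 20033 protein-coding genes and 6.86% of the 8791 genes with a single-gene peak of any fold at an end.

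The peaks came from 1 chromatin immunoprecipitation (ChIP-seq) with an antibody against the Flag tag, compared with 1 input library. The cells were A549, a human lung adenocarcinoma line, which per the study's methods carried an shRNA against ETV4 and had been transfected with Flag-ETV4. The signal is therefore that of an overexpressed, tagged protein, and the labels themselves give only the line for both libraries. There was no replicate, so intervals on shares cover counting error over the peaks of this library and no p-value is given.

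ETV4 belongs to the PEA3 group of ETS transcription factors, which act downstream of RAS and ERK signaling and bind DNA through a winged helix domain that recognizes a GGAA core. Flanking bases add to the affinity, and CCGGAA, often followed by GT, is the form favored by many ETS proteins. Promoters of housekeeping genes carry this form often, whereas signal-responsive ETS sites are also found in enhancers, next to sites of other factors such as AP-1.

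The sequences under the summits are shown first, because the letters beside the summit were not used to choose the peaks. The 8 stretches below belong to the strong peaks of highest fold whose summit lay in a listed promoter window and that hold CCGGAA within 50 bases of the summit. They are written 5′ to 3′ in the direction of transcription on GRCh38.p14 (hg38), from RefSeq promoter sequences, and end at most 30 bases past the start site. Capitals mark CCGGAA on either strand, so the reverse complement reads TTCCGG, and the summit is base 51 of each stretch. YWHAB, whose match lies further downstream, is left out.
PDCD2, chr6:170584608-170584677, minus strand: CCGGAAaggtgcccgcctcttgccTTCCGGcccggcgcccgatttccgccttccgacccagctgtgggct
SPATA2, chr20:49915500-49915597, minus strand: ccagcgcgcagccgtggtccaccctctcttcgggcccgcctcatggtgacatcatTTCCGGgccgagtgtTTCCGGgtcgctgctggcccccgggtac
TM9SF3, chr10:96587008-96587108, minus strand: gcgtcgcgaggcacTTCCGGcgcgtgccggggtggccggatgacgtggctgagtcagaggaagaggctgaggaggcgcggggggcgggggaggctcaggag
RBCK1, chr20:408210-408310, plus strand: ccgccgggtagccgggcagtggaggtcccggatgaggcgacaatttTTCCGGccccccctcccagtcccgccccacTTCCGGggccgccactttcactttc
NAA20, chr20:20017308-20017391, plus strand: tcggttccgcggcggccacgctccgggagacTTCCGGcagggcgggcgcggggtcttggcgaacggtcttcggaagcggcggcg
EP400, chr12:131949877-131949971, plus strand: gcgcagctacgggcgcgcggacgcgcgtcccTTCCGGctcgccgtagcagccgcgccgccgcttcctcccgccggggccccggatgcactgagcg
FKBP1A, chr20:1393166-1393266, minus strand: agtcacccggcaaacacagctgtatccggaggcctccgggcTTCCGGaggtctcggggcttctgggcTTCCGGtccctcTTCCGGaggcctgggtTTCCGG
ZNF410, chr14:73886827-73886888, plus strand: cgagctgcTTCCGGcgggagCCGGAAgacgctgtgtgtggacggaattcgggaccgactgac

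PDCD2, with a fold of 97.6, had 2 matches. RBCK1, a subunit of the linear ubiquitin chain assembly complex, and SPATA2, which binds that complex, had folds of 91.4 and 95.2 and 2 matches each in these stretches. TM9SF3, a membrane protein, had a fold of 94.1 and 1 match. NAA20, the catalytic subunit of the N-terminal acetyltransferase NatB, had a fold of 89.6. EP400, an ATPase that remodels chromatin, had a fold of 86.3. FKBP1A, the immunophilin that binds rapamycin, had a fold of 84.2 and 4 matches, all on the same strand. ZNF410, a zinc finger protein, had a fold of 84.0 and 2 matches in opposite orientations.

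A high fold was also seen without this motif. The next 3 stretches are those of highest fold whose whole window held no CCGGAA on either strand. Each also had to hold the shorter core GGAA, so its presence in them was fixed by the choice. Of the 45 strong windows with the summit and no CCGGAA, 25 (55.6%) had GGAA within 25 bp of the summit. Capitals mark GGAA, or TTCC on the other strand. TRPM6, a magnesium channel with a kinase domain, had a fold of 98.9. WDR11, a WD-repeat protein, had a fold of 89.8. TTC21B, a component of the ciliary transport machinery, had a fold of 88.3, and its summit is base 28 of the stretch.
TRPM6, chr9:74887332-74887432, minus strand: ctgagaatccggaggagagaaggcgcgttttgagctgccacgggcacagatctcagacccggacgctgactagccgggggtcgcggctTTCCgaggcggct
WDR11, chr10:120851279-120851379, plus strand: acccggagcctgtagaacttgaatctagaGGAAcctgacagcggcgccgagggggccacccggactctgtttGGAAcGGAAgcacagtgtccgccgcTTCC
TTC21B, chr2:165953949-165954026, minus strand: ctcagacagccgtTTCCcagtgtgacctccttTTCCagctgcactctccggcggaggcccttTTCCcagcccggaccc

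The promoter of IPPK, the kinase that makes inositol hexakisphosphate, held 6 copies and is an example, chosen after its values were seen, of a window with many matches. Its peak had a fold of 69.9. The stretch is 280 bases long with the summit at base 96. The run TTCCGGAA holds 2 overlapping copies, 1 on each strand.
IPPK, chr9:92670102-92670381, minus strand: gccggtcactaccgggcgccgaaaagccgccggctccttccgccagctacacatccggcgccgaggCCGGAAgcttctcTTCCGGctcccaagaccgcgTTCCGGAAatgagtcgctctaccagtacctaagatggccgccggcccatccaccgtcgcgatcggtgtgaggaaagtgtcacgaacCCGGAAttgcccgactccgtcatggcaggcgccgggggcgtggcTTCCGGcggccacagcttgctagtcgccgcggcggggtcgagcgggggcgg

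The strong peaks were deep. The number of fragments piled up at the summit was between 114 and 617, with a median of 183, as it follows from each peak's deposited fold and −log10 p. The control level at the same points had a median of 2.01 and reached 6.08. Over the 8795 weaker peaks at single gene ends, with a fold below 50, the median pileup was 42 fragments and the median control level 2.02. In 71 of the 603 strong peaks (11.8%), the control was at its floor of 1.28 fragments, where it no longer follows the input. The −log10 q ranged from 173 to 989 with a median of 281. Strong peaks had a median width of 1474 bp and were at most 5749 bp wide. The widest were at MIDN (5749 bp), JUNB (5557 bp), ZSWIM6 (5478 bp), ARHGEF2 (4854 bp), and BORCS6 (4763 bp).

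**Figure D1:**
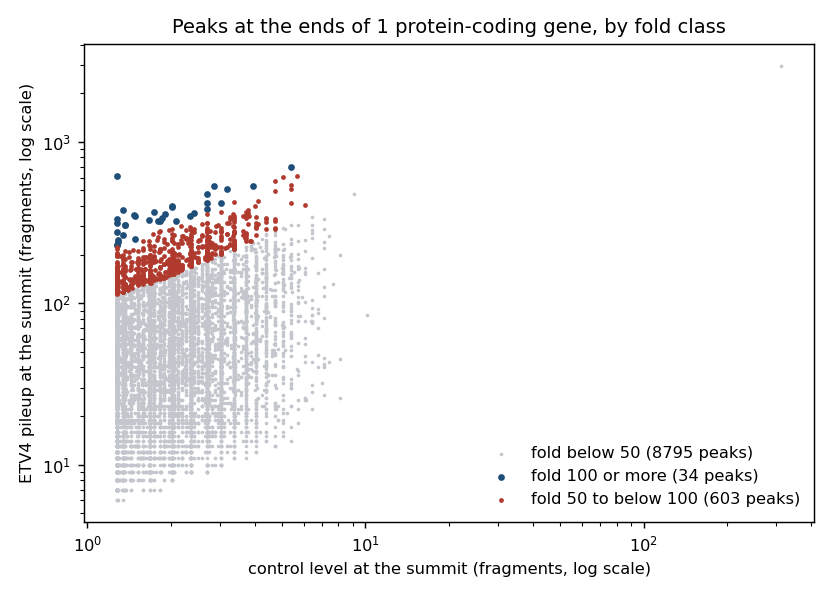
Pileup of ETV4 fragments against the control level at the summit for all 9432 peaks at the ends of 1 protein-coding gene, both axes on a log scale, with 1 point per peak. The 603 strong peaks form the band between 114 and 617 fragments, above the 8795 peaks with a fold below 50 at equal control levels, and the 34 peaks with a fold of 100 or more lie above them.

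The 10 strong peaks of highest fold differed in depth at almost the same fold. CD70, a TNF family ligand, had a fold of 99.6 from 280 fragments over a control level of 1.82. TWF1, a twinfilin that binds actin monomers, had a fold of 99.4 from 568 fragments over 4.73. ZNF507, a zinc finger gene, had 99.3 from 601 fragments over 5.06. TRPM6 (98.9), SGPP1 (98.8), a phosphatase of sphingosine 1-phosphate, and TPT1 (97.7), which encodes the translationally controlled tumor protein, followed. PDCD2 (97.6), TRAM2 (97.0), AGPAT2 (95.9), an acyltransferase of phosphatidic acid synthesis, and YWHAB (95.6), a 14-3-3 protein, completed the list. The pileup was greatest at RPS19, a protein of the small ribosomal subunit, with 617 fragments over 5.69 and a fold of 92.4.

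The bounds on fold do not mark a gap. Just inside the lower bound lay ARPC3 (50.05), SLC9A8 (50.05), and SMAD3 (50.07), and just below it EID2 (49.93), EIF3J (49.92), and SHANK1 (49.92). Just inside the upper bound lay CD70 (99.64), TWF1 (99.38), and ZNF507 (99.29), and just above it ICA1 (100.5), TNNI3 (101.2), and GOLGA7B (101.2). A pileup of 113 fragments at EIF3J and 114 at MYH9, both over a control of 1.28, fell on different sides of the lower bound.

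Strong peaks lay at the 5′ ends of their genes. Direction was known for the 492 genes that matched the promoter table, and 478 of these peaks (97.2%, Wilson 95% confidence interval 95.3% to 98.3%) were at the 5′ end. Among the weaker single-gene peaks the share was 91.2% (6457 of 7084), a difference of 6.01 percentage points (Newcombe 95% confidence interval 4.03 to 7.34). The share rose over fold classes from 82.9% below 5 to 85.2%, 94.1%, and 96.4% in the classes starting at 5, 10, and 25. The difference from the class of 25 to below 50 was 0.741 points, with an interval that includes 0 (−1.29 to 2.26). The share was 86.2% (25 of 29) among the few peaks with a fold of 100 or more, whose interval, 69.4% to 94.5%, ends below that of the strong peaks.

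The summit sat on or just inside the gene. It was inside the gene body at 412 of 603 strong peaks (68.3%, 64.5% to 71.9%) and at 64.2% of weaker peaks, a difference of 4.17 points (0.228 to 7.90). In the neighboring class of fold 25 to below 50 it was 66.9%, and the difference, 1.44 points (−2.86 to 5.56), was within counting error. The median distance from the summit to the gene end was 234 bp for strong and 242 bp for weaker peaks. Of the strong peaks at genes in the promoter table, 56.9% lay within 250 bp of a listed start site, against 53.4% of weaker peaks, and the interval of the difference, −1.07 to 7.95 points, includes 0. Against peaks with a fold below 10 (46.98%) the difference was 9.93 points (5.11 to 14.6), and against the class of 25 to below 50 it was −0.585 points (−5.58 to 4.33). Among those at 5′ ends, 60.04% of strong and 58.56% of weaker summits were downstream of the nearest start site, also with an interval that includes 0 (−3.13 to 5.95 points).

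**Figure D2:**
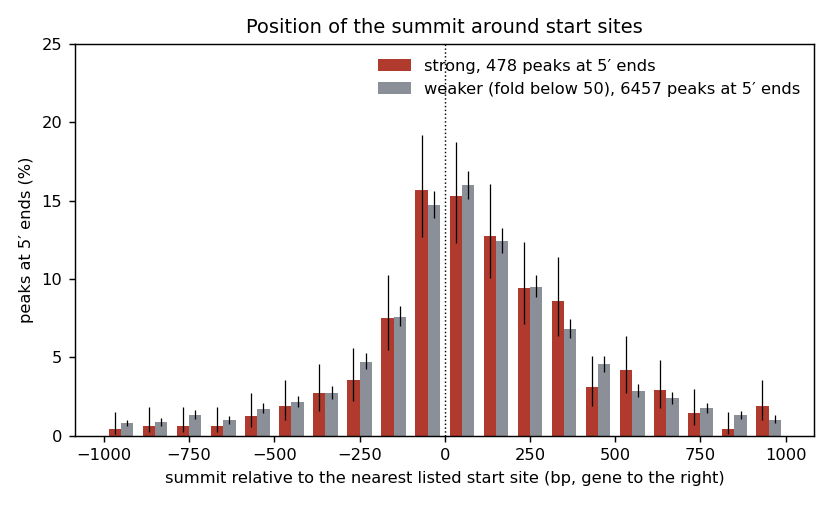
Share of peaks at 5′ ends, in percent, by the position of the summit relative to the nearest listed start site in bins of 100 bp, for strong peaks (red) and peaks with a fold below 50 (gray), with Wilson 95% intervals. Strong summits peaked in the bins on either side of the start site, with 15.7% upstream and 15.3% downstream, and were more frequent at 200 to 300 bp downstream (9.41%) than at 200 to 300 bp upstream (3.56%).

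Only 14 strong peaks in genes of known direction were at a 3′ end. They were at SPINK8 (fold 88.9), C20orf204 (80.5), EHD2 (69.3), SCN1A (67.9), RPL27A (65.6), TRPM4 (63.2), CSF3R (57.9), ADM (57.4), LOC107985729 (57.2), SERPINI1 (55.7), JUNB (54.6), PRR7 (53.6), TMEM158 (52.4), and PALM3 (51.2). Several of these genes are short, so their 3′ end is also near the start: JUNB spans 1.83 kb, TMEM158 1.82 kb, and ADM, the precursor of adrenomedullin, 2.32 kb. SCN1A, a sodium channel, spans 164 kb (1 peak 705 bp from its 3′ end, 296 fragments).

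Marked genes were long more often than the genes of all weaker peaks together, while the difference from the neighboring class of fold was within counting error. Of the strong peaks, 67.0% (404 of 603) were at genes over 20 kb, against 62.9% of weaker peaks, a difference of 4.11 points (0.131 to 7.88). The share was 54.4% below a fold of 5, 59.1% from 5, 64.4% from 10, and 68.25% from 25, and the difference from the last was −1.25 points (−5.57 to 2.90). The median length was 38.05 kb, against 31.3 kb for weaker peaks and 24.1 kb over all protein-coding genes. The longest marked genes were NAALADL2 (1370 kb), ERC2 (960 kb), NPAS3 (869 kb), RIMS2 (755 kb), and NBEA (730 kb), among which ERC2 and RIMS2 encode proteins of the presynaptic active zone and NPAS3 a neuronal transcription factor. The shortest were RPRML (1.10 kb), OVCA2 (1.40 kb), AURKAIP1 (1.47 kb), NT5C (1.51 kb), and FAM89B (1.65 kb). At genes over 20 kb, the opposite end also held a peak in 13 of 404 cases (3.22%, 1.89% to 5.43%), against 388 of 5531 (7.01%) for weaker peaks, a difference of −3.8 points (−5.3 to −1.5). Against the class of 25 to below 50 (4.69%) the interval includes 0 (−3.27 to 0.945 points). These counts are over peaks, so a gene with weaker peaks at both ends enters once per peak. Over genes of all lengths, weaker peaks were at 5′ ends less often (91.2% against 97.2%). The part of either in the difference was not tested.

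Many strong peaks were shared with a non-coding gene. An end of an lncRNA gene lay within 1 kb of 147 strong summits (24.4%, 21.1% to 28.0%), against 20.03% of weaker ones, a difference of 4.34 points (0.977 to 8.02). By fold class the share was 15.8% below 5, 16.4% from 5, 21.8% from 10, and 22.9% from 25, and the difference from the last was 1.47 points (−2.27 to 5.45). For 29 genes the lncRNA was their own named divergent transcript, such as RNASEH1-DT, YAP1-DT, and CLSPN-DT, and for 29 their own antisense RNA, such as SPRY4-AS1. An end of a miRNA gene lay within 1 kb of 11 strong summits (1.82%), against 0.853% of weaker ones, a difference of 0.972 points (0.141 to 2.39), and 0.800% in the class from 25 (1.03 points, 0.0908 to 2.47). Among them were MIR137 and MIR2682 at LOC124904228, MIR2861 and MIR3960 at CDK9, MIR3188 at JUND, and MIR3678 at GRB2. The peak list cannot tell which of these neighbors a peak acts on.

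The known functions of the marked genes were described with 46 lists of genes. Together these hold 1740 protein-coding genes, of which 94 (5.40%) had a strong peak, against 2.78% of the genes in no list and 3.01% of all. Listed genes were also bound more broadly, as 1128 of them had a single-gene peak of some fold. Over all protein-coding genes, 58.5% had a peak of any fold at an end, shared ends included. Among genes with such a peak, 8.33% of the listed and 6.64% of the other genes had a strong one. In 32 of the 46 lists the share exceeded that of all protein-coding genes, and in 8 no gene had a strong peak. In 25 of these 32, the share among genes with a single-gene peak also exceeded the 6.86% over all such genes. The lists had been chosen with earlier results of these data known, and most counts rest on 1 to 5 genes.

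**Figure D3:**
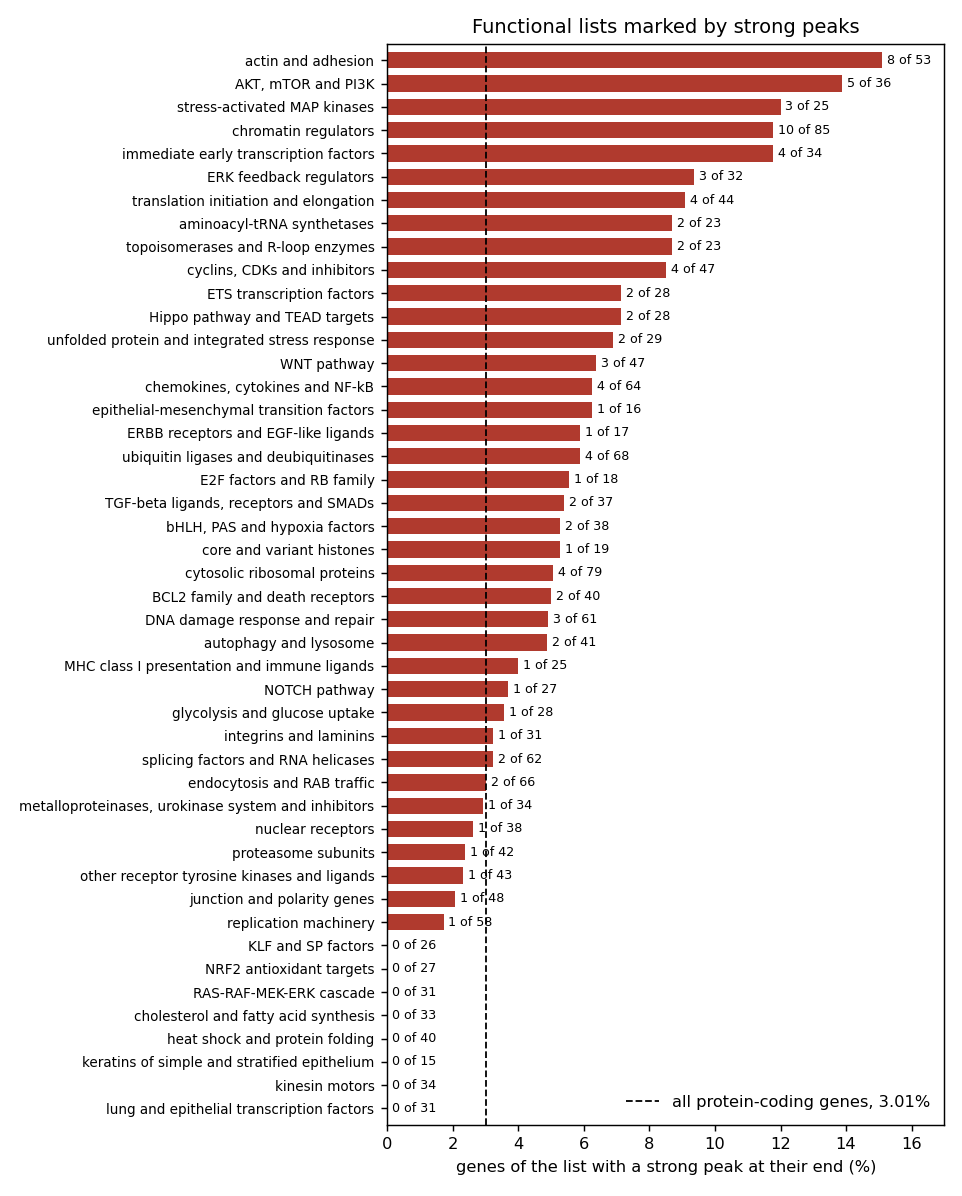
Share of genes with a strong peak at an end, in percent, for each of the 46 functional lists, with the number of genes beside each bar and a dashed line at the 3.01% of all protein-coding genes. The list of actin and adhesion genes is at the top with 8 of 53 genes, and 8 lists at the bottom have none.

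Genes of the actin cytoskeleton and of adhesion had 8 of 53 (15.1%, or 23.5% of the 34 with a single-gene peak), the greatest share under the bounds used here. This order depended on the bounds, as another list led under 6 of the 8 settings tried. CTTN, which encodes cortactin, an activator of branched actin at the cell cortex, had a fold of 85.3 from 286 fragments. CDC42EP1 (70.7), an effector of CDC42, and RAC1 (62.3), a small GTPase that drives lamellipodia, followed. DIAPH1 (56.5) is a formin that elongates actin filaments. PTK2 (56.2), the focal adhesion kinase, ZYX (55.8), which encodes zyxin of focal adhesions, MYH9 (50.4), the heavy chain of non-muscle myosin IIA, and ARHGEF2 (50.2), an activator of RhoA, made up the rest. MYL12B and MSN had peaks of a fold of 100 or more and are not counted. The median fold over the single-gene peaks of this list was 30.2, against 16.4 over all genes with such a peak.

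AKT, mTOR, and PI3K genes had 5 of 36 (13.9%). SGK3 (76.0) and AKT2 (75.4) encode kinases that act downstream of PI3K, and their pileups were 363 and 349 fragments. FOXO3 (64.4) encodes a transcription factor that AKT phosphorylates. RICTOR (57.0) is the defining subunit of mTORC2, and PIK3CB (51.4) encodes the catalytic subunit p110β. PIK3R1, which encodes the regulatory subunit p85α, had a peak above the upper bound.

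Among stress-activated MAP kinases, 3 of 25 had a strong peak. MAPK11 (67.4) encodes p38β, MAP3K6 (59.6) a kinase related to ASK1, and MAP3K7 (53.7) TAK1, which relays TGF-β and cytokine signals. MAP2K4 had a peak in the same fold range at an end that it shares with another gene. The RAS-RAF-MEK-ERK cascade had 0 of 31, which at 3.01% of all genes is too few genes to read as a difference. MAPK6 of this list had a fold of 68.25 at an end shared with another gene. From a fold of 40 the list had 3 of 31, with 5.58% of all genes marked at that bound. ERK feedback regulators had 3 of 32 (9.38%), and 31 of the 32 had some peak at an end, against 58.5% of all protein-coding genes. They were RASA1 (76.0), a GTPase-activating protein for RAS, SPRY4 (58.1), a Sprouty inhibitor of receptor signaling, and GRB2 (54.9), the adaptor that links receptors to SOS. The list is thus broader than its name, as GRB2 passes receptor signals on. Of the 25 genes with a DUSP symbol 0 had a strong peak, again too few genes to read as a difference.

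Immediate early transcription factors had 4 of 34 (11.8%), with folds in a narrow range. FOSB (56.0), JUND (55.4), and JUNB (54.6) encode AP-1 subunits, and EGR1 (52.3) a zinc finger factor induced by growth factors. Their pileups were 263, 204, 201, and 175 fragments. All 4 were below a fold of 60, so that a lower bound of 60 left 0 genes of this list, with 1.53% of all genes marked. The summit was at −233 bp from the start site for EGR1, −536 bp for JUND, and +428 bp for FOSB. Of these 4 summits, only that of EGR1 lay inside a listed promoter window, which held no CCGGAA.

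Chromatin regulators gave the largest number of marked genes, 10 of 85 (11.8%). KMT2B (79.7) and KMT2D (61.0) encode H3K4 methyltransferases. SMARCD2 (75.9), SMARCA2 (60.2), and SMARCD1 (57.3) encode subunits of SWI/SNF complexes, and BRD7 (54.9) a bromodomain subunit of the same family. CHD1 (59.6) and CHD7 (58.6) encode chromodomain remodelers. KDM7A (58.0) encodes a histone demethylase and KAT2B (51.7) an acetyltransferase. HDAC3 and NSD3 had peaks in this fold range at ends shared with another gene.

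Translation genes had 4 of 44 (9.09%), of which EIF4G3 (88.9) encodes a scaffold of cap-dependent initiation and EIF4EBP2 (72.3) an inhibitor of the cap-binding protein eIF4E that mTOR phosphorylates. EIF1 was at 59.2 and EIF2S2 at 51.2. Aminoacyl-tRNA synthetases had 2 of 23, GARS1 (63.3) and YARS1 (50.8). Cytosolic ribosomal proteins had 4 of 79 (5.06%): RPS19 (92.4), RPL27A (65.6), RPS7 (65.4), and RPL28 (65.3). Of the 79 ribosomal protein genes, 92.4% had some peak at an end, against 58.5% of all protein-coding genes. The median fold was 13.6 over the ribosomal protein genes with a single-gene peak.

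Among cell cycle and replication genes, cyclins, CDKs, and inhibitors had 4 of 47 (8.51%). They were CDK17 (67.3), CDK9 (58.4), the kinase of the elongation factor P-TEFb, CDKN1C (55.2), which encodes the inhibitor p57, and CDK18 (53.4). The replication machinery had 1 of 58 (1.72%), CLSPN (51.4), which encodes claspin, a mediator of the replication checkpoint. Peaks of any fold were at an end of 91.4% of the 58 replication genes, against 58.5% of all protein-coding genes. The median fold was 10.9 over the single-gene peaks of the replication genes. MCM7 and DBF4 had peaks of 50 to below 100 at ends shared with another gene. Topoisomerases and R-loop enzymes had 2 of 23 (8.70%). RNASEH1 (68.5) encodes the RNase H that degrades RNA in RNA-DNA hybrids, and TOP3B (54.8) a topoisomerase that also acts on RNA. DNA damage genes had 3 of 61 (4.92%): BLM (60.3), the Bloom helicase, BARD1 (54.96), the partner of BRCA1, and NBN (54.0), of the MRN complex.

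ETS family genes had 2 of 28 (7.14%), ETV3 (74.9) and ETV6 (65.7), both of which encode ETS repressors. Of the Hippo list, YAP1 (64.0), the coactivator of TEAD factors, and AMOT (59.6), which binds YAP, were marked (2 of 28). The WNT list had 3 of 47: DVL3 (69.7), which encodes Dishevelled 3, GSK3B (51.7), and CSNK1D (51.5). Cytokine and NF-κB genes had 4 of 64, of which NFKBIE (76.8) encodes an inhibitor of NF-κB, BCL3 (57.4) an atypical member of the same family, and JAK1 (64.7) and JAK2 (51.5) cytokine receptor kinases. TRIB3 (54.9) and NFE2L2 (50.6), which encodes NRF2, were the 2 of 29 genes of the stress response list. The NRF2 antioxidant targets had 0 of 27, and 2 from a fold of 40, a bound at which 5.58% of all genes were marked. Ubiquitin ligase genes had 4 of 68: FBXO32 (74.1), SMURF1 (57.8), NEDD4L (55.8), and FBXW7 (52.1). TGF-β genes had SMURF1 and SMAD3 (50.1) of 37.

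The lists without a strong peak were KLF and SP factors (26 genes), heat shock proteins and folding (40 genes), cholesterol and fatty acid synthesis (33 genes), kinesin motors (34 genes), keratins (15 genes), and lung and epithelial transcription factors (31 genes), besides the RAS cascade and the NRF2 targets. Most of these genes had weaker peaks. An end of 90.0% of the heat shock and 85.3% of the kinesin genes held some peak, against 58.5% of all protein-coding genes. The keratins, of which 13.3% had any peak, were the exception. FOXP4, of the lung list, had a peak with a fold of 100 or more. At 3.01% of all genes, each of these lists holds too few genes to read the lack of a strong peak as a difference.

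Motifs were searched on both strands in promoter windows of 300 bases, from 250 before to 50 after a start site, with the start nearest to the summit used for each gene. Of the marked genes, 492 had a window. CCGGAA occurred in 41.7% of these (205 of 492, 37.4% to 46.1%), in 27.4% of the windows of 6585 genes that had only weaker single-gene peaks, and in 21.2% of all 22198 windows of protein-coding genes. The difference between strong and weaker was 14.2 points (9.83 to 18.8). The core GGAA, which CCGGAA contains, occurred in 95.7% and 94.6% (1.11 points, −1.12 to 2.67), and in 95.1% of all windows. The longer CCGGAAGT, which contains both, occurred in 11.6% and 7.17%, and in 5.33% of all windows.

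The contrast was sharper where the summit lay inside the window, as it did for 161 strong and 2159 weaker peaks. CCGGAA occurred in 116 of the 161 strong windows (72.0%, 64.7% to 78.4%) and in 41.4% of the weaker ones, a difference of 30.6 points (22.97 to 37.3). With 99.5% intervals, which allow for the 10 motifs searched, it was 19.5 to 39.8. By fold class the share was 28.0% below 5, 33.1% from 5, 44.3% from 10, 48.7% from 25, 72.0% in the strong peaks, and 90.9% (10 of 11) at 100 or more. Within 25 bp of the summit, CCGGAA was found at 36.6% of strong and 17.46% of weaker peaks (difference 19.2 points, 11.9 to 27.0), and GGAA at 75.2% and 58.5% (16.7 points, 9.21 to 23.1).

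**Figure D4:**
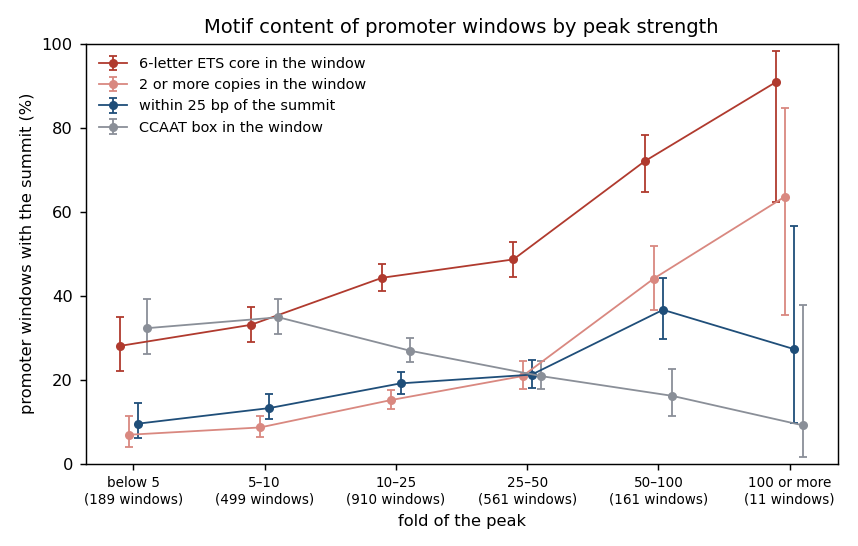
Share of promoter windows containing the summit, in percent, that held CCGGAA, 2 or more copies of it, a copy within 25 bp of the summit, or a CCAAT box, by the fold of the peak, with Wilson 95% intervals and the number of windows per class. CCGGAA rises from 28.0% to 72.0% between the lowest class and the strong peaks, while CCAAT falls from 32.3% to 16.1%.

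Strong windows held several copies more often than weaker ones. Of the 161 windows, 45 had no CCGGAA, 45 had 1 copy, 35 had 2, and 36 had 3 or more. Their median folds were 62.0, 58.7, 62.15, and 62.6. The strong peaks were chosen within a bounded range of fold, so these medians cannot show whether the fold rises with the copies. At least 2 copies were present in 44.1% of strong and 14.4% of weaker windows (difference 29.7 points, 22.1 to 37.5), and at least 3 in 22.4% and 3.10% (19.3 points, 13.4 to 26.3). Over all windows of protein-coding genes, whether or not a summit lay in them, 5.52% held at least 2. Exactly 1 copy was present in 28.0% and 27.0%. Besides IPPK, TPRKB, which encodes a subunit of a tRNA-modifying complex, held 6 copies (fold 52.1), and MTRF1L, a mitochondrial release factor, 5 (fold 62.6). By fold class, at least 2 copies were present in 20.9% of windows from 25, 44.1% in the strong peaks, and 63.6% (7 of 11) at 100 or more. For peaks of the same fold at the ends of 2 genes the share was 44.7% (17 of 38), so the trait was not particular to single-gene ends.

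**Figure D5:**
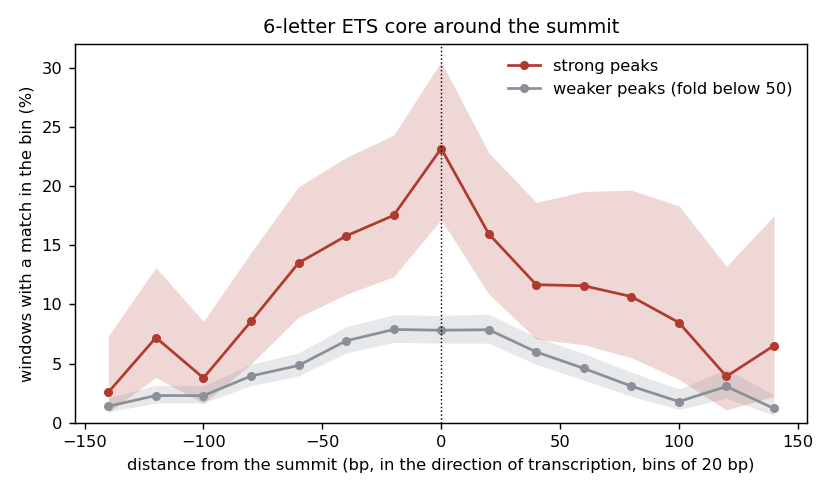
Share of promoter windows with CCGGAA in bins of 20 bp around the summit, in percent, for strong (red) and weaker peaks (gray), counted over the windows that cover the bin, with Wilson 95% intervals as bands. At the summit the share was 23.2% for strong and 7.82% for weaker peaks, and it fell on both sides.

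The matches lay close to the summit. The nearest CCGGAA was at a median distance of 23.5 bp in the 116 strong windows that held it and 31.5 bp in the 894 weaker ones. Strong windows also held more copies, and the part of this in the shorter distance was not tested. For the SP/KLF box GGGCGG the medians were 41.5 bp and 39.5 bp. Of 77 copies within 25 bp of a strong summit, 45.5% were preceded by G and 28.6% by A, and the 2 bases that followed were most often GC (22.1%) or GT (20.8%). Among all 2069 words of 6 letters found within 25 bp of the summits, the reverse complement counted as the same word, GCCGGA and CCGGAA had the greatest excess in strong over weaker peaks, with 31.7% against 12.6% and 35.4% against 16.5%. These words overlap each other and were ranked on the same data, so the ranking is a description.

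Other promoter motifs were level or less common in strong windows with the summit. The CCAAT box, bound by NF-Y, was in 16.1% of strong and 27.7% of weaker windows (difference −11.5 points, −16.7 to −4.78). In windows with the summit of the class of fold 25 to below 50 it was in 20.9% (17.7% to 24.4%). That interval overlaps the one of the strong windows with the summit (11.3% to 22.6%). Without regard to the summit it was in 23.4% of the 492 strong windows, 34.8% of weaker, and 34.7% of all windows. The NRF1 core TGCGCA was in 4.35% of strong windows and in 216 of 2159 weaker ones (−5.66 points, −8.25 to −1.14), with a 99.5% interval, −9.04 to 1.56, that includes 0. The E-box CACGTG was in 4.97% and 9.26%, with an interval that includes 0. The SP/KLF box GGGCGG was frequent in both, at 82.6% and 76.6% (6.04 points, −0.776 to 11.4). Without regard to the summit it was in 79.5% of strong and 73.7% of weaker windows (5.74 points, 1.81 to 9.25). The 99.5% interval of that difference, −0.0107 to 10.6, includes 0. The AP-1 site TGANTCA was rare at 3.11% and 4.77%, as were the CRE TGACGTCA at 4.35% and 3.33% and the TATA box TATAAA at 3.11% and 3.57%, each with an interval of the difference that includes 0. A match is a description of the letters and not evidence of a site in use.

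Base composition was similar in these windows. The median GC content was 68.3% in both strong and weaker windows with the summit, and the observed to expected ratio of CpG was 0.885 and 0.861. Within windows below 60% GC, CCGGAA occurred in 22 of 23 strong and 51.4% of weaker windows (difference 44.2 points, 26.9 to 50.4). From 60% to below 70% the shares were 85.3% and 48.3% (37.0 points, 26.1 to 44.3), and at 70% or more 51.4% and 31.0% (20.4 points, 8.55 to 32.1). The strong peaks with the summit in a GC-rich window were thus those that most often lacked the motif.

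Peaks of the same fold at the ends of 2 genes had similar sequences. Of those 89 peaks, 38 had the summit in a promoter window, of which 68.4% held CCGGAA and 44.7% at least 2 copies. The differences from the strong single-gene peaks were 3.63 points (−10.9 to 20.7) and −0.637 points (−17.9 to 15.9). These intervals are too wide to show whether the sets differ.

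Among the listed genes, 24 had the summit in a promoter window. ATG16L1 (62.7), an autophagy gene, had 4 copies of CCGGAA with the nearest 3.5 bp from the summit, and SNRPB (63.7), a core splicing protein, 3 copies with the nearest at 7.5 bp. ITGB1 (59.4), the β1 integrin, PSMD7 (55.2), of the proteasome lid, and ATG5 (52.0) had 1 copy each, at 8.5, 9.5, and 8.5 bp. ICAM1 (51.02), an adhesion ligand of leukocytes, had 4 copies with the nearest at 29.5 bp, and MAP3K7 2 with the nearest at 22.5 bp. The nearest copy was 13.5 bp away at BIRC2, 26.5 at RPS7, 38.5 at TOP3B, 41.5 at SMARCD2, and 47.5 at BLM. It was 51.5 bp away at DVL3, 74.5 at CDK9, 120.5 at PFKP, and 127.5 at RPL28. ETV3, RNASEH1, MAPK11, YAP1, ADAM10, ZYX, EGR1, and NFE2L2 had no copy in the window that held their summit. Over all 161 strong windows with the summit, 72.0% held a copy.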

How the data were processed

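ChIP-seq with an anti-Flag antibody was analysed for 1 immunoprecipitate, with 1 input library that had no file of its own here. Per the labels, the authors' processing notes name Bowtie2 2.4.1, SAMtools, MACS2 2.2.7.1, and deepTools 3.5.0 with hg38, with no parameters. The labels name a Sigma antibody against Flag and the paper's methods one from CST. The deposited peak list holds, for each summit, a fold (the ratio of the immunoprecipitate to the control) with its −log10 p and −log10 q, and a display score set by the authors' peak caller that was not used. The depth behind a peak was computed from these: with the fold as the pileup plus 1 over the control plus 1 and a Poisson p-value, all pileups came out whole within 0.00914. All functions gave 0 errors on simulated data.

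Gene ends came from RefSeq on GRCh38.p14, with 20033 protein-coding genes on chromosomes, and promoter windows from the same release. Of the marked genes, 492 matched a window and 111 did not. The direction of the latter was not used here. Shares have Wilson and their differences Newcombe 95% intervals, which treat peaks as independent and cover counting error only. Within a gene's several start sites, the nearest to the summit was used. The members, the 46 lists, and the motifs were chosen with earlier results of these data known. The genes named were the 10 of highest fold, the 3 peaks on each side of each bound, the marked genes of the lists, the 5 widest peaks, and the 5 longest and 5 shortest genes. Fold classes, GC classes, copy numbers, and the comparison with peaks at 2 genes were added after the values were seen. Computation was in Python 3.11.15 with scipy 1.17.1, pandas 2.3.3, numpy 2.4.6, and matplotlib 3.10.9.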

Additional observations from a re-analysis of the deposited data

How the results depend on the processing

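The number of strong peaks followed the bounds on fold, with 1119 from a bound of 40 and 306 from a bound of 60, and the listed genes marked were 179 and 41. These were 10.3% and 2.36% of the listed genes, against 5.58% and 1.53% of all genes. Without the upper bound, with windows of 500 bp or 2 kb, from the peak edge, or with exactly 1 gene of any type, the count stayed within 1.5 times of 603. With a window of 500 bp the share at the 5′ end was 98.5% and the share near a non-coding gene end 20.6%, and with 2 kb 95.1% and 31.6%, against 97.2% and 25.4%. The share of promoter windows with CCGGAA was 35.4% from a fold of 40 and 72.0% in windows with the summit, against 41.7%, and was within the interval of the main value for a bound of 60, for no upper bound, and for the outermost start site of each gene, which was added after seeing the data. Against peaks with a fold below 10 only, the difference in the 5′ share was 12.7 points, in genes over 20 kb 9.34 points, in summits within 250 bp of a start site 9.93 points, and near lncRNA ends 8.13 points. Against the class of fold 25 to below 50, a comparison added after seeing the data, all of these intervals included 0. The counts of single lists are small, and 44 of the 46 moved by over 1.5 times, or to or from 0, under at least 1 alternative. The bounds of 40 and 60 moved the count of all strong peaks by over 1.5 times as well, so this says little about single lists. The list with the greatest share was actin and adhesion under 2 of the 8 settings, ERK feedback under 3, AKT under 2, and stress kinases under 1. The actin, AKT, stress kinase, chromatin, ERK feedback, translation, ribosomal, cytokine, cyclin, topoisomerase, Hippo, autophagy, bHLH, and ETS lists were above the share of all genes under all 8 settings (the bHLH list was below it among genes with a single-gene peak, 6.67% against 6.86%), and the replication, cholesterol, and keratin lists under none. The 8 settings come from 1 peak list and overlap, so a list's place under all of them is not independent support. The replication list, with 1 of 58 genes under the main bounds, holds too few to read as a difference. No paired analysis was possible because there was 1 library of each kind and no test between conditions. With no replicate, no library could be left out.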

Other observations

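The following genes and groups were picked after their values were seen, so their counts are descriptions with no test. Of 282 stems of gene symbols shared by at least 10 protein-coding genes, 109 had a strong peak. The groups below are among the highest of these, and over all protein-coding genes the share was 3.01%. DCAF genes, which encode substrate receptors of the CUL4-DDB1 ubiquitin ligase, had 4 of 19 (21.1%): DCAF5 (fold 83.9), DCAF12 (77.2), DCAF10 (55.5), and DCAF8 (51.4). Each of these 4 had 1 CCGGAA in its promoter window, and of all 492 marked genes with a window 41.7% held at least 1. ZDHHC genes, which encode palmitoyltransferases, had 5 of 24 (20.8%): ZDHHC1 (61.8), ZDHHC21 (59.2), ZDHHC4 (56.4), ZDHHC2 (52.1), and ZDHHC22 (51.1). CHST sulfotransferase genes had 3 of 15, CHST3 (85.6), CHST14 (58.8), and CHST15 (53.0), all of which act on chondroitin or dermatan sulfate.

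Both glycogen synthase kinase 3 genes and both genes of the GSK3-binding FRAT proteins held a strong peak: GSK3A (80.2), FRAT1 (74.5), FRAT2 (69.6), and GSK3B (51.7). The pileups were 512, 169, 163, and 129 fragments, and each summit lay within 300 bp downstream of a start site. This set was put together after its values were seen, and over all protein-coding genes the share with a strong peak was 3.01%.

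Chromosome X had 4 marked genes, ALG13 (62.6), AMOT (59.6), GUCY2F (53.4), and FRMPD3 (51.7). These were 1.39% (Wilson 95% confidence interval 0.543% to 3.53%) of the 287 genes there with a single-gene peak, against 7.04% of 8504 on the other chromosomes, a difference of −5.65 points (−6.67 to −3.45). The single-gene peaks of X had a median pileup of 32 fragments against 47 elsewhere and a median control level of 1.35 against 2.02, and the control was at its lowest value in 43.7% of them against 15.9%. The part of the lower control and pileup in this difference was not tested.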
